A study of Mus musculus with 9 samples.

Results

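Growth hormone (GH), the transcription factor STAT5 and insulin-like growth factor 1 (IGF1) form an endocrine axis that runs through the liver. The mRNA levels of 10 of its genes, chosen by symbol, were followed in livers of mice with diet-induced nonalcoholic steatohepatitis (NASH): Ghr, Stat5a, Stat5b, Igf1, Igfals, Igfbp1, Socs2, Cish, Bcl6 and Cux2. All 10 are among the 24008 genes listed in the count table, and all 10 had enough counts to be among the 14379 genes tested. RNA was sequenced from whole liver of 9 mice in 3 groups of 3, with 1 library per mouse. Every mouse received a high fat and high carbohydrate diet, with fructose and glucose in the drinking water. Flox mice, which the sample labels call WT, carried floxed Irf4 alleles without Cre on a C57BL/6J background. F4MKO mice lacked interferon regulatory factor 4 (IRF4) in skeletal muscle, where a myosin light chain Cre (Myl-Cre) deleted the floxed gene. F4MKO+FSTL1 mice were F4MKO mice whose gastrocnemius was injected with an adeno-associated virus of serotype 8 carrying follistatin-like 1 (FSTL1), a secreted glycoprotein, under the muscle creatine kinase promoter. According to the study's methods, Flox and F4MKO mice received a GFP virus in the same muscle, while the labels name no vector for them. The labels give neither the sex nor the age at collection, and the liver itself was not the target of the deletion or of the virus promoter.

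GH from the pituitary binds its receptor on hepatocytes, and the receptor-bound kinase JAK2 phosphorylates STAT5A and STAT5B, which enter the nucleus and switch on target genes. Igf1 and Igfals are classical targets: IGF1 circulates in a complex with IGFALS, the acid-labile subunit, and a binding protein. Socs2 and Cish are targets that feed back on the receptor, whereas Bcl6 is a repressor whose gene STAT5 lowers. Igfbp1 encodes a binding protein that insulin suppresses in liver, and Cux2 encodes a female-biased transcriptional repressor. In rodents GH is released in pulses in males and more continuously in females, and this pattern sets many sex differences in liver gene expression.

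Promoter sequences are shown for members that hold a motif tied to the regulators of this axis, so that the letters can be set beside the expression values. RefSeq promoter windows on GRCm38.p6, from 250 bases before to 50 bases after an annotated start, were found for 9 of the 10 members, all but Socs2, and amounted to 16 windows. The STAT-type palindrome TTCNNNGAA, which reads the same on both strands and is bound by several STAT proteins and by BCL6, was found in 5 of these 16 windows, belonging to Bcl6, Cish and Igfals. It was present in 8.30% of all 32851 windows of this length. CAAAACA, the core of an insulin response element that FOXO factors bind, was searched on both strands and was found in the Igfbp1 window among the members and in 6.28% of all windows. The runs below are written 5′ to 3′ on the strand of the gene, with the motif letters in capitals. Igfals is shown at chr17:24877981-24878230 (plus strand, bases -250 to -1 of its second window), Igfbp1 at chr11:7197537-7197781 (plus strand, -250 to -6), Bcl6 at chr16:23981284-23981533 (minus strand, -250 to -1 of its second window) and Cish at chr9:107296654-107296683 (plus strand, -5 to 25).
Igfals: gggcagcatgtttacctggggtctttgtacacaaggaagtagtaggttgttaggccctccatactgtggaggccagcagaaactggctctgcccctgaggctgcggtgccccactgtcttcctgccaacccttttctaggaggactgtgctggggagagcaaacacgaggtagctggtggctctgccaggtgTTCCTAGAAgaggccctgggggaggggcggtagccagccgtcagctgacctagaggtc
Igfbp1: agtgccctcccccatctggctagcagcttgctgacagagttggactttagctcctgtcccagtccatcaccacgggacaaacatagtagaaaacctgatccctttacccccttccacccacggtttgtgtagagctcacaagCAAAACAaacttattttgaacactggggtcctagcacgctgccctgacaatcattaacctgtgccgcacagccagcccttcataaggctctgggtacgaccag
Bcl6: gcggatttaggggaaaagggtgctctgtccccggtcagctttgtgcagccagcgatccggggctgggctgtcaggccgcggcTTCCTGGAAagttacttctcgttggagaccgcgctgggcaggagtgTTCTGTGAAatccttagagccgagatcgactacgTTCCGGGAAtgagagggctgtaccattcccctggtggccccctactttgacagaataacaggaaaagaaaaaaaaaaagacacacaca
Cish: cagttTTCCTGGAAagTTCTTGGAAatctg
The Igfals palindrome lay at -58 to -50 from this start, and its first window held another at -236 to -228. Bcl6 had 3 matches in the second window, at -168 to -160, -122 to -114 and -88 to -80, and 1 in the first. The matches of Cish, at 1 to 9 and 12 to 20, were separated by 2 bases, and the Igfbp1 motif lay at -108 to -102. No TTCNNNGAA was found in the windows of Ghr, Igf1, Stat5a, Stat5b, Cux2 or Igfbp1, which says only that these letters are not in those windows.

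**Figure D1:**
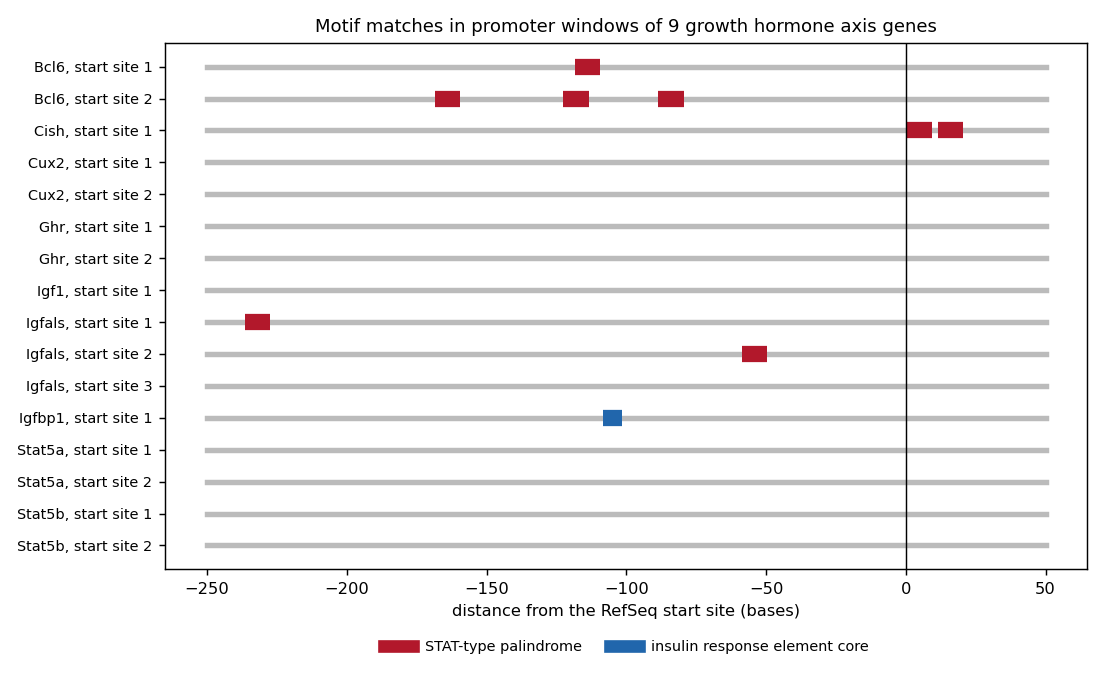
Positions of TTCNNNGAA (red) and CAAAACA (blue) in the 16 promoter windows of 9 members, as the distance in bases from the RefSeq start site on the x axis, with 1 grey line per window. Red marks lie in 5 windows of Bcl6, Cish and Igfals, and the only blue mark lies in the Igfbp1 window.

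Gene counts summed to between 20656976 and 24322984 per library. Y-linked transcripts were present in all 9 libraries (Ddx3y, 850 to 1190 counts) and Xist had 0 to 3 counts, so every library had the expression pattern of a male. Hepatocyte markers were abundant in every library, with a summed level of 65328 to 96058 CPM (counts scaled to a library of standard size by edgeR's TMM method), lowest in replicate 1 of F4MKO. Summed stellate cell markers ran from 458 to 530 CPM in Flox, 602 to 761 in F4MKO and 301 to 414 in F4MKO+FSTL1 livers, and macrophage markers from 661 to 1064, 837 to 894 and 400 to 625 CPM. Cholangiocyte markers ran from 69.8 to 107, 181 to 457 and 54.2 to 70.0 CPM. Most of this sum was a single gene, Spp1, at 42.2 to 78.2, 143 to 397 and 29.8 to 45.6 CPM in the same groups. Tested markers were also counted by the call rule given below. In F4MKO+FSTL1 against F4MKO livers, 6 of 10 stellate, 6 of 10 macrophage, 4 of 6 cholangiocyte, 0 of 9 lymphocyte and 0 of 10 endothelial markers were lower. The share of all tested genes called lower was 11.2%. In the same comparison 1 of 9 hepatocyte markers was higher, beside 3.21% of all tested genes. In F4MKO against Flox livers, 2 of 6 cholangiocyte markers, Epcam and Spp1, were called higher, where 0.271% of all tested genes were called. Of the 10 stellate cell markers 0 were called there. Their ranges were separate for 5, Dcn, Col1a1, Col1a2, Col3a1 and Hand2, all higher, beside 21.8% of all tested genes in either direction. The ranges of the other stellate cell markers, such as Lrat and Des, overlapped. No marker of these lists was at 0 in every library. In bulk liver, fewer cells of a type and less RNA per cell cannot be told apart. Liver Irf4 had 92 to 132 counts in 8 libraries and 10 in replicate 1 of F4MKO+FSTL1. Liver Fstl1 was lower in F4MKO+FSTL1 (67 to 114 counts) than in F4MKO livers (234 to 456 counts), by 1.53 on the log2 scale (edgeR adjusted p = 0.0017), and it had 138 to 186 counts in Flox. The study, by contrast, reported from qPCR that liver Fstl1 mRNA did not change after the virus, and the reason for this difference was not tested. Liver counts of these genes do not check a deletion and a virus directed at muscle.

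CPM were divided by the annotated exon length of each gene in kb, for a rough comparison between genes. On this scale Igfbp1 had the highest level of the 10 members in Flox livers (88.2 ± 28.3 CPM per kb, SD, n = 3). Ghr (45.1 ± 2.98) and Igf1 (42.9 ± 4.91) followed, and the ranges of Ghr and Igf1 overlapped. Igfals stood at 19.9 ± 8.53, Stat5b at 10.1 ± 1.43 and Bcl6 at 4.88 ± 1.49 CPM per kb. Stat5a (2.56 ± 0.239), Socs2 (2.31 ± 1.93) and Cish (2.21 ± 0.956) were not separated beyond their spread on this scale, and Cux2 was lowest at 0.0339 ± 0.0136. The exon length used for Cish, 6.419 kb, exceeded the span of the gene given below, so it was not an mRNA length. The order of the genes depends on these lengths, and levels of genes with long exon totals can be understated. The order of the first 3 genes was different in F4MKO+FSTL1 livers. There the CPM per kb of Igfbp1 were 32.1 on average, ranging from 19.7 to 40.8, while Ghr ranged from 46.7 to 56.7 and Igf1 from 42.4 to 53.6.

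Ghr, which encodes the GH receptor (chromosome 15, 3317755 to 3583352), was lower in F4MKO than in the other livers. Its levels were 377, 422 and 425 CPM in the Flox livers, 286, 294 and 330 CPM in the F4MKO livers, and 472, 514 and 423 CPM in the F4MKO+FSTL1 livers. Each F4MKO liver was below each of the other 6 livers, and the ranges of Flox and F4MKO+FSTL1 overlapped. Ghr rose in F4MKO+FSTL1 against F4MKO livers, from 303 ± 23.7 to 470 ± 45.5 CPM (SD, n = 3), a log2 fold change of 0.63 (standard error 0.11, 95% interval 0.38 to 0.88, adjusted p = 0.00400 by the quasi-likelihood test of edgeR, adjusted over all tested genes after Benjamini and Hochberg). A gene was called changed at an adjusted p under 0.05 and a fold change above 1.5, and the fold of Ghr was 1.55, just above that limit. Without replicate 2 of F4MKO+FSTL1 its log2 fold change was 0.57 (edgeR adjusted p = 0.0221), under the fold limit. The log2 fold change of F4MKO against Flox livers was -0.43 (interval -0.68 to -0.18, edgeR adjusted p = 0.107), which did not pass. That of F4MKO+FSTL1 against Flox livers was 0.20 (interval -0.05 to 0.45, edgeR adjusted p = 0.490).

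Of the 10 members, 3 were called in F4MKO+FSTL1 against F4MKO livers, where 14.4% of all tested genes were called. Ghr and Igfals rose (3.21% of all tested genes were called higher) and Igfbp1 fell (11.2% were called lower). For 7 members the ranges of the 2 groups did not overlap, with 4 higher and 3 lower, as for 39.0% of all tested genes. In F4MKO against Flox livers 0 of 10 members were called by edgeR, beside 0.271% of all genes, and 2 members, Ghr and Bcl6, had an unadjusted p under 0.05. The groups did not overlap for 1 member there, Ghr, and for 21.8% of all genes. In F4MKO+FSTL1 against Flox livers 0 of 10 members were called, beside 0.00695% of all genes, while Igfals and Igfbp1 had an unadjusted p under 0.05, and Igfbp1 was called by DESeq2. In that comparison the groups did not overlap for 2 members, Stat5a and Igfbp1, both lower, and for 18.2% of all genes. The first and second comparisons share the F4MKO livers, and the Flox livers enter both the first and the last. The median log2 fold changes of the 10 members were -0.13, 0.15 and -0.02 in the order of these comparisons (F4MKO with Flox, F4MKO+FSTL1 with F4MKO, F4MKO+FSTL1 with Flox), beside 0.00, 0.01 and 0.00 for all tested genes.

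**Figure D2:**
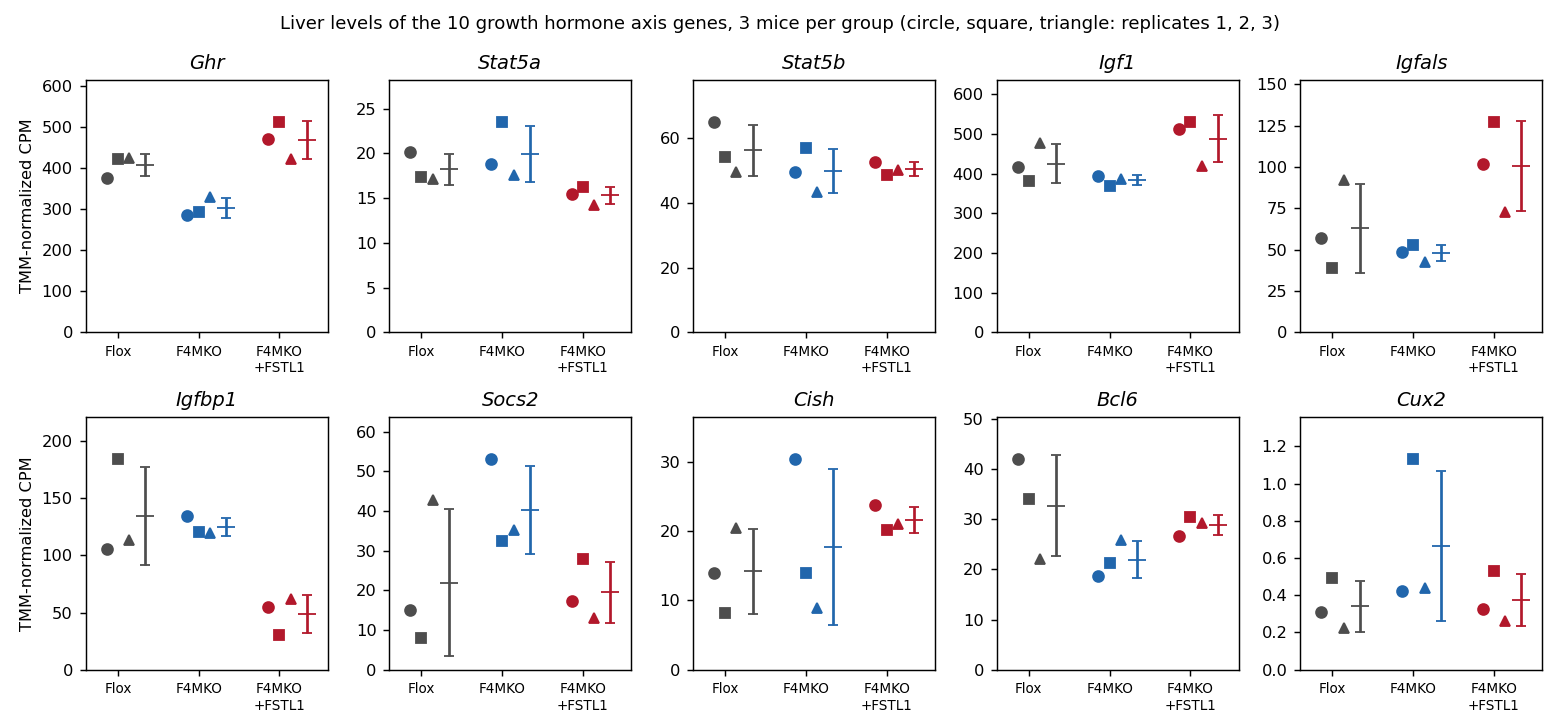
TMM-normalized CPM (y axis, from 0) of the 10 genes in 3 Flox, 3 F4MKO and 3 F4MKO+FSTL1 livers (x axis), 1 point per mouse, with mean ± SD beside the points. The 3 F4MKO livers lie below all others for Ghr, and the 3 F4MKO+FSTL1 livers lie below all others for Igfbp1, from 30.0 to 62.3 CPM.

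STAT5A and STAT5B, the transducers of the GH signal, are encoded by neighbouring genes on chromosome 11 (Stat5b from 100780731 to 100859004, Stat5a from 100859351 to 100885169). The Stat5a levels were 20.2, 17.4 and 17.1 CPM in Flox, 18.8, 23.5 and 17.6 CPM in F4MKO, and 15.5, 16.2 and 14.3 CPM in F4MKO+FSTL1 livers. All 3 F4MKO+FSTL1 livers had less than any other liver, by a log2 fold change of -0.38 against F4MKO (interval -0.66 to -0.10), and the test was not passed (edgeR adjusted p = 0.0563). Stat5b, the main STAT5 of liver, had 64.9, 54.0 and 49.6 CPM in Flox, 49.4, 56.9 and 43.3 CPM in F4MKO, and 52.6, 48.4 and 50.03 CPM in F4MKO+FSTL1 livers. The 3 groups overlapped for Stat5b, and the interval of its log2 fold change between F4MKO+FSTL1 and F4MKO ran from -0.25 to 0.28 around 0.01. The 2 genes are similar in sequence, and how reads shared between genes were counted was not stated.

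Igf1 (chromosome 10, 87858265 to 87937047), the growth factor that liver releases into the circulation, was measured with 8044 to 11129 reads per library. Its levels were 417, 381 and 478 CPM in Flox, 394, 370 and 386 CPM in F4MKO, and 513, 530 and 420 CPM in F4MKO+FSTL1 livers. Every F4MKO+FSTL1 liver was above every F4MKO liver, and the Flox livers overlapped both. The log2 fold change between these groups was 0.35 (standard error 0.12, interval 0.08 to 0.62), and it did not pass the test (edgeR adjusted p = 0.0673). F4MKO and Flox livers differed by -0.15 on the log2 scale, with an interval from -0.42 to 0.12.

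Igfals (chromosome 17, 24877844 to 24882011), whose product keeps IGF1 in the circulation, had 57.3, 39.1 and 92.3 CPM in Flox, 48.4, 52.8 and 42.8 CPM in F4MKO, and 102, 127 and 72.6 CPM in F4MKO+FSTL1 livers. The F4MKO+FSTL1 livers were all above the F4MKO livers, and the Flox livers overlapped both. Igfals rose 2.09-fold in F4MKO+FSTL1 against F4MKO livers (log2 fold change 1.07, standard error 0.27, interval 0.47 to 1.66, edgeR adjusted p = 0.0183). The adjusted p was 0.0612 without replicate 1 of F4MKO, 0.0512 without replicate 3 of F4MKO and 0.0804 without replicate 2 of F4MKO+FSTL1, so the edgeR call rested on each of these livers. Against Flox the log2 fold change was 0.68 in F4MKO+FSTL1 (edgeR adjusted p = 0.308) and -0.39 in F4MKO livers (edgeR adjusted p = 0.497).

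Igfbp1 (chromosome 11, 7197787 to 7202546) differed most between F4MKO+FSTL1 and the other livers. It had 106, 184 and 114 CPM in Flox, 134, 121 and 119 CPM in F4MKO, and 54.5, 30.0 and 62.3 CPM in F4MKO+FSTL1 livers. All 3 F4MKO+FSTL1 livers were below the other 6, while Flox and F4MKO overlapped. Igfbp1 fell in F4MKO+FSTL1 against F4MKO livers, from 125 ± 8.14 to 48.9 ± 16.8 CPM (log2 fold change -1.35, standard error 0.26, interval -1.92 to -0.78, edgeR adjusted p = 0.00499). Compared with Flox the log2 fold change was -1.46 (interval -2.03 to -0.89), with an edgeR adjusted p of 0.0713, although only 26 of 14379 genes had a smaller p in that comparison. It was called there with DESeq2 (adjusted p = 6.56e-06) and, in edgeR, without the filter on low counts (adjusted p = 4.36e-05). Leaving out replicate 3 of F4MKO+FSTL1 also gave a call (edgeR adjusted p = 0.0322). The difference between F4MKO and Flox livers was -0.11, with an interval from -0.66 to 0.44.

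**Figure D3:**
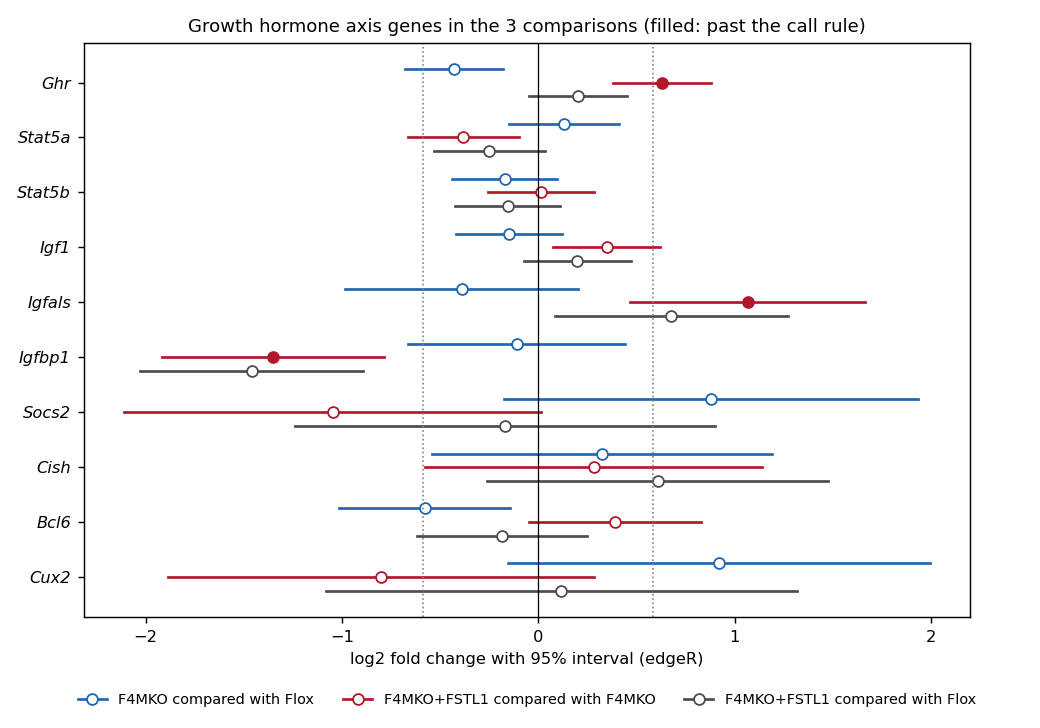
Log2 fold changes (x axis) of the 10 genes (y axis) in the 3 comparisons, with 95% intervals as bars, filled symbols for genes past the call rule and dotted lines at a fold change of 1.5. The filled symbols are Ghr at 0.63, Igfals at 1.07 and Igfbp1 at -1.35, all in F4MKO+FSTL1 against F4MKO.

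Socs2 and Cish, which encode inhibitors in the feedback on the GH receptor, were not called in any comparison. Socs2 (chromosome 10, 95383903 to 95417321) had 15.1, 7.99 and 42.9 CPM in Flox, 53.1, 32.5 and 35.2 CPM in F4MKO, and 17.3, 28.0 and 13.2 CPM in F4MKO+FSTL1 livers. The F4MKO livers were all above the F4MKO+FSTL1 livers, and the Flox livers spread over both ranges, with replicate 3 above the other 2. The log2 fold change of Socs2 was -1.05 in F4MKO+FSTL1 against F4MKO (interval -2.11 to 0.02, edgeR adjusted p = 0.147) and 0.88 in F4MKO against Flox livers (interval -0.18 to 1.93, edgeR adjusted p = 0.380). Without replicate 3 of Flox, which enters the shared estimate of the spread, the first of these was -1.04 with an edgeR adjusted p of 0.0337 and passed. It also passed when the fit held only the 6 libraries compared (edgeR adjusted p = 0.0294) and without the filter on low counts (edgeR adjusted p = 0.0271). Cish (chromosome 9, 107296659 to 107302784) had 13.95, 8.19 and 20.5 CPM in Flox, 30.3, 13.9 and 8.86 CPM in F4MKO, and 23.7, 20.1 and 21.0 CPM in F4MKO+FSTL1 livers. All 3 groups overlapped for Cish, and edgeR gave adjusted p-values of 0.717, 0.645 and 0.577 in the 3 comparisons.

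Bcl6 and Cux2 encode repressors with opposite sex bias in liver, the first male-biased and the second female-biased. Bcl6 (chromosome 16, 23965050 to 23988866) had 41.9, 34.1 and 22.1 CPM in Flox, 18.6, 21.3 and 25.9 CPM in F4MKO, and 26.6, 30.5 and 29.2 CPM in F4MKO+FSTL1 livers. The F4MKO livers were below the F4MKO+FSTL1 livers, and replicate 3 of Flox lay within the F4MKO range. Its log2 fold change was -0.58 in F4MKO against Flox (interval -1.01 to -0.14, edgeR adjusted p = 0.185) and 0.39 in F4MKO+FSTL1 against F4MKO livers (interval -0.05 to 0.83, edgeR adjusted p = 0.184). Cux2 (chromosome 5, 121857962 to 122050415) was barely present, with 5 to 27 reads per library. Its levels were 0.31, 0.49 and 0.22 CPM in Flox, 0.42, 1.13 and 0.44 CPM in F4MKO, and 0.33, 0.53 and 0.26 CPM in F4MKO+FSTL1 livers. Replicate 2 of F4MKO was above all others, the groups overlapped, and the intervals of all 3 comparisons included 0.

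Other genes of the pathway were counted from lists of known function. Of 20 tested genes that carry the GH signal or act beside it, such as Jak2, 0 were called by edgeR in any comparison, with 0, 3 and 2 genes at an unadjusted p under 0.05. Jak2 itself differed by 0.12, -0.18 and -0.06 on the log2 scale. Of 17 tested genes that attenuate cytokine receptor signals, 2 fell (11.8%) in F4MKO+FSTL1 against F4MKO livers, a share near the 11.2% of all tested genes called lower. They were Sirpa, which encodes a receptor that recruits phosphatases and is abundant on macrophages (-1.22, standard error 0.17, edgeR adjusted p = 0.00152), and Cbl, which encodes a ubiquitin ligase (-0.998, standard error 0.25, edgeR adjusted p = 0.0173). In the IGF system 13 of 17 listed genes were tested, and 2 of the 13 fell (15.4%, beside the same 11.2%) in this comparison: Igfbp7 by 0.79 on the log2 scale (edgeR adjusted p = 0.00182) and Htra1, a protease gene, by 1.05 (edgeR adjusted p = 0.0165). Summed stellate cell and macrophage markers moved the same way as these 4 genes (602 to 761 and 837 to 894 CPM in F4MKO, 301 to 414 and 400 to 625 CPM in F4MKO+FSTL1), and their part in these changes was not tested. Igfbp3, whose product joins IGF1 and IGFALS in the circulating complex, differed by -0.37 (edgeR adjusted p = 0.260) and Igfbp4 by 0.56 (edgeR adjusted p = 0.00922, under the fold limit). These 2 genes and Jak2 were named after their values were seen. None of these lists had a called gene in the other comparisons.

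Genes known to be kept high in male liver by pulsatile GH were counted next. Of 19 listed genes 18 were tested, and 9 rose in F4MKO+FSTL1 against F4MKO, where 3.21% of all tested genes were called higher. The median log2 fold change of the 18 was 1.22, with all 18 above 0, beside 0.01 for all tested genes. In F4MKO against Flox livers, 0 of 18 were called by edgeR, 13 had an unadjusted p under 0.05 and the median was -1.17, with all 18 below 0. The ranges of the groups overlapped for 5 of the 18 in each of these comparisons, which share the F4MKO livers. Ranges were separate for 13 genes in F4MKO against Flox, all lower, beside 21.8% of all tested genes in either direction. They were also separate for 13 genes in F4MKO+FSTL1 against F4MKO, all higher, beside 39.0% in either direction. Against Flox, 0 were called in F4MKO+FSTL1 livers, with 4 at an unadjusted p under 0.05, and the median was 0.45.

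Hsd3b5, a steroid dehydrogenase gene of male liver, had 14.6, 10.9 and 39.5 CPM in Flox, 4.67, 0.126 and 0.599 CPM in F4MKO, and 75.8, 155 and 50.8 CPM in F4MKO+FSTL1 livers. Its 3 groups did not overlap, with F4MKO lowest and F4MKO+FSTL1 highest. The log2 fold change was 5.64 in F4MKO+FSTL1 against F4MKO (standard error 0.84, edgeR adjusted p = 0.00182) and -3.52 in F4MKO against Flox livers (edgeR adjusted p = 0.0767). Mup7, Mup1, Mup11, Mup3 and Mup21, which encode major urinary proteins, rose by 5.002, 3.56, 3.44, 2.25 and 2.21 in F4MKO+FSTL1 against F4MKO livers, with edgeR adjusted p from 0.00152 to 0.00884. Some of these genes are near-identical copies, and the split of reads among such copies is uncertain. Their calls are therefore not separate observations within the 9 called genes of this list. Slco1a1, an organic anion transporter gene named after its values were seen, had 216, 255 and 249 CPM in Flox, 117, 28.5 and 102 CPM in F4MKO, and 340, 393 and 272 CPM in F4MKO+FSTL1 livers. Its groups did not overlap, in the same order as those of Hsd3b5, and it rose by 2.02 in F4MKO+FSTL1 against F4MKO livers (edgeR adjusted p = 0.00498). Replicate 2 of F4MKO, the liver with the most Cux2, had the least Hsd3b5, Mup7 and Slco1a1 of all 9 livers.

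Genes that male GH pulses hold low were counted in the same way. Of 22 listed female-biased genes, 13 had enough counts to be tested, and since a gene could pass through F4MKO alone, their count is a description. Lower calls were made for 7 of the 13 in F4MKO+FSTL1 against F4MKO livers, where 11.2% of all tested genes were called lower, and 12 of 13 were below 0, with Acot3 as the exception. Their median was -1.42. For F4MKO against Flox 0 were called by edgeR, 5 had an unadjusted p under 0.05, and the median was 0.72. For F4MKO+FSTL1 against Flox 0 were called, 2 had an unadjusted p under 0.05, and the median was -0.44. Cyp2a4, a female-biased cytochrome P450 gene, had 12.8, 5.37 and 2.35 CPM in Flox, 37.9, 80.8 and 6.99 CPM in F4MKO, and 2.20, 3.03 and 5.12 CPM in F4MKO+FSTL1 livers. The F4MKO livers were above the F4MKO+FSTL1 livers, replicate 2 of F4MKO was again the extreme liver, and the difference was -3.61 on the log2 scale (edgeR adjusted p = 0.00976). Atp6v0d2, Cyp3a41b, Cyp3a16, Abcd2 and Fmo2 fell by 2.19, 2.05, 1.81, 1.42 and 1.149 (edgeR adjusted p from 0.00277 to 0.00928). Summed macrophage markers were also lower in F4MKO+FSTL1 (400 to 625 CPM) than in F4MKO livers (837 to 894 CPM), and their part in these changes was not tested. Reads of the Cyp3a genes can be split among close copies, and Cyp3a41b and Cyp3a16 were at 2.18 CPM or less in every liver. Of 9 tested hepatocyte markers, 7 were above 0 in F4MKO+FSTL1 against F4MKO livers (median 0.27). The groups did not overlap for 3 of the 9, Apoa1, Ttr and Serpina1a, all higher, beside 39.0% of all tested genes. Serpina1a was called (0.68, edgeR adjusted p = 0.00981), where 3.21% of all tested genes were called higher. The sum of these markers ran from 65328 to 96058 CPM in F4MKO and from 77297 to 93894 CPM in F4MKO+FSTL1 livers, and their part in the results on members and sex-biased genes was not tested.

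**Figure D4:**
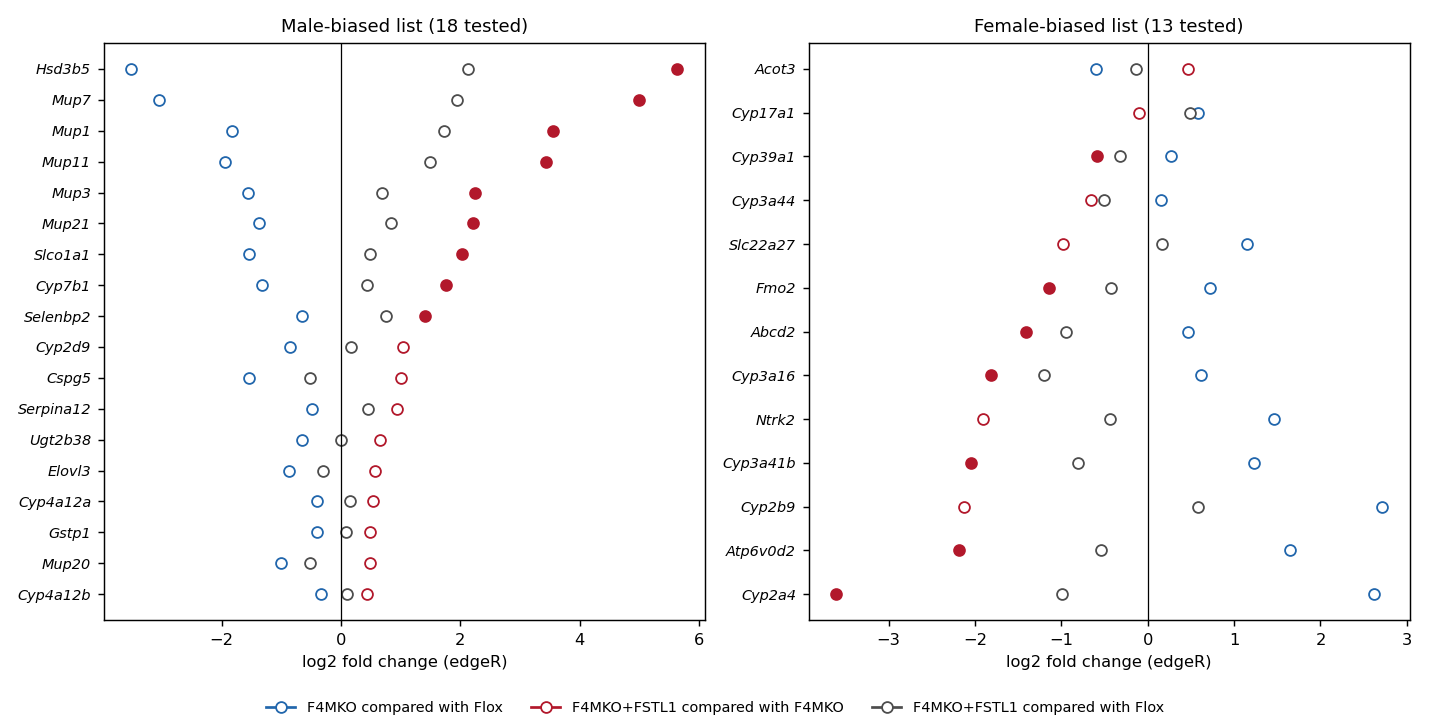
Log2 fold changes (x axis) of 18 male-biased (left) and 13 female-biased genes (right) with known GH dependence in the 3 comparisons, with filled symbols for genes past the call rule. In F4MKO+FSTL1 against F4MKO, 9 male-biased genes are filled above 0 and 7 female-biased genes below 0.

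Lipid genes that are known to rise in livers without GH receptor or STAT5 were also counted. Of 12 tested, 4 fell in F4MKO+FSTL1 against F4MKO livers, where 11.2% of all tested genes were called lower, and 1 rose, where 3.21% were called higher. Lpl, which encodes lipoprotein lipase, fell by 1.76 (edgeR adjusted p = 0.00116), Vldlr, a lipoprotein receptor gene, by 1.66 (edgeR adjusted p = 0.0105), Fasn, which encodes fatty acid synthase, by 0.86 (edgeR adjusted p = 0.0129), and Cd36, a fatty acid transporter gene, by 0.72 (edgeR adjusted p = 0.00840). Cidea, which encodes a lipid droplet protein, rose by 2.34 (edgeR adjusted p = 0.0270), although the groups overlapped at 0.293 to 1.06 CPM in F4MKO and 0.888 to 6.07 CPM in F4MKO+FSTL1. The median of the 12 was -0.27 in this comparison and 0.41 in F4MKO against Flox livers, where 10 of the 12 were above 0. Macrophages also express Lpl and Cd36, and summed macrophage markers were lower in F4MKO+FSTL1 (400 to 625 CPM) than in F4MKO livers (837 to 894 CPM), whose part in these changes was not tested. In the comparisons with Flox 0 of the 12 were called by edgeR, with 2 genes (F4MKO) and 4 genes (F4MKO+FSTL1) at an unadjusted p under 0.05. By contrast, the study reported that key lipogenesis genes were lower in F4MKO livers and restored after the FSTL1 virus. The reason for this difference was not tested.

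Igfbp1 is also a target of FOXO1, which insulin inhibits, and of the stress factor ATF4, and genes of both were counted. Of 9 tested FOXO1 and fasting genes, 1 was called in F4MKO+FSTL1 against F4MKO livers: Pdk4, a kinase gene that limits glucose oxidation, fell by 1.62 (edgeR adjusted p = 0.00189). The gluconeogenic genes Pck1 and G6pc differed by 0.26 and 0.00. Of 8 tested ATF4 and stress genes 1 was called, Atf3, which fell by 2.13 (edgeR adjusted p = 0.00152). In that comparison 14.4% of all tested genes were called. The members of the FOXO1 list ran from -1.62 to 0.33 and those of the ATF4 list from -2.13 to 0.37.

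Within the axis, Igfals tracked Igf1 across livers. Over the 9 livers the log2 CPM of these genes had a Pearson r of 0.9502 and a Spearman rho of 0.90, as a description, since the points share libraries and 3 groups. The r was 0.880 without replicates 1 and 2 of F4MKO+FSTL1 and 0.893 after group means were removed. Igfals and Igfbp1 had an r of -0.865 (rho -0.90, within groups -0.749), which was -0.632 without the same 2 livers. Igf1 and Cish had an r of 0.524 (rho 0.583, within groups 0.453). Igf1 and Socs2 showed r = 0.0566 over the 9 livers, with a rho of 0, and 0.864 after group means were removed. Both genes were highest in replicate 3 among the Flox livers in replicate 1 among the F4MKO livers and in replicate 2 among the F4MKO+FSTL1 livers, while the groups themselves were ordered differently for each. The genes most like Igf1 over the 9 livers were Lifr (r = 0.963), Homer2 (0.951) and Igfals. Those most like Socs2 were Cdc42ep3 (0.962), Zbtb3 and Tgm1 (both 0.926), and those most like Cux2 were Zscan25 (0.956), Btaf1 (0.893) and Zfp770 (0.892). These are the highest values among 14379 tested genes over only 9 livers, so high r values can arise by selection. They are a description, and Cux2 had only 5 to 27 reads per library.

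**Figure D5:**
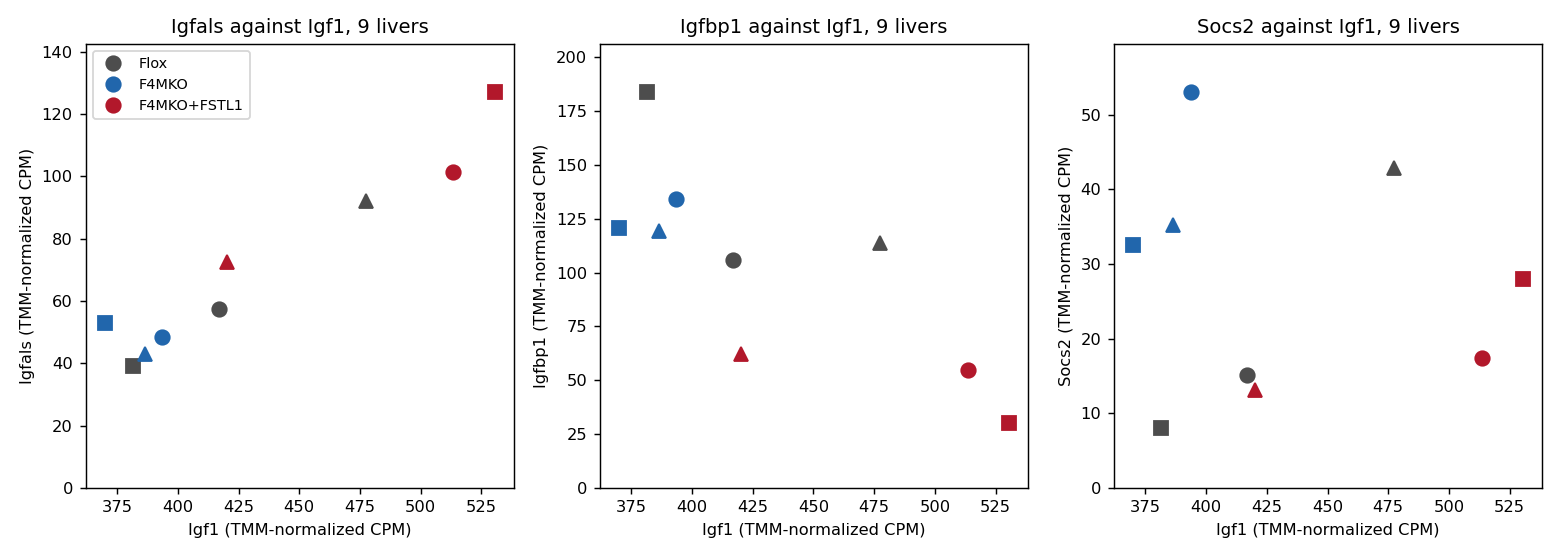
Levels of Igfals, Igfbp1 and Socs2 (y axes, TMM-normalized CPM) against Igf1 (x axes, TMM-normalized CPM, not starting at 0) in 9 livers, coloured by group, with circles, squares and triangles for replicates 1, 2 and 3. Igfals rises with Igf1 over the 9 livers (r = 0.9502 on log2 CPM), whereas for Socs2 the F4MKO livers lie at low Igf1 and high Socs2, from 32.5 to 53.1 CPM.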

How the data were processed

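Liver RNA from 9 mice was sequenced by the authors as paired-end reads on a BGIseq500. Per the submitters' processing notes, reads were trimmed with Trim Galore 0.6.7, aligned to mm10 with HISAT2 2.2.1 and counted on genes with featureCounts 2.0.1, while annotation, strand and multimapping settings were not given in the sources used here. The authors deposited these counts as whole numbers, not normalized (20656976 to 24322984 per library).

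The tests used edgeR 4.0.16 under R 4.3.3. Low genes were removed by filterByExpr (minimum count 10, or 0.432 CPM in the median library, in at least 3 libraries, and minimum total 15), and libraries were scaled by TMM (factors 0.927 to 1.17). A quasi-likelihood fit with 1 mean per group took all 9 libraries, with Benjamini-Hochberg adjustment over 14379 genes (common biological coefficient of variation 0.150). CPM are counts per library scaled by TMM. Intervals of 95% came from the standard errors of this fit. The prior count for log2 CPM was 2 in the search for the genes most like a member. Correlations of named pairs used log2 CPM without a prior count. The study's methods name DESeq2, which was an alternative here (version 1.42.0). P-values set the difference between groups against the spread between mice within groups, estimated over all 9 libraries. Count error also weighs on genes with few reads, such as Cux2 (5 to 27 counts), Cidea (3 to 130) and Hsd3b5 in F4MKO livers (3 to 132). The fit was checked on simulated data.

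Members and lists were chosen with earlier results of these data known. All 10 members are named. Of each list, called genes are named, up to the 6 with the largest change per comparison, and for Igf1, Socs2 and Cux2 the 3 genes with the highest correlation of log2 CPM. Exon lengths came from GENCODE, promoter sequences from RefSeq, both on the build of the files. The 24008 symbols include some turned into dates, which belong to no list.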

Additional observations from a re-analysis of the deposited data

How the results depend on the processing

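In F4MKO+FSTL1 against F4MKO, Ghr, Igfals and Igfbp1 were called with DESeq2, with DESeq2 size factors and with the replicate block; Socs2 joined them without the filter and with only 6 libraries. A test against a 1.5-fold change left 1 member, Igfbp1. Library totals without TMM factors moved the median of all genes to -0.18, Ghr to 0.44 and Stat5b to -0.18, and lost the call of Ghr. Leaving out a library gave 1 member (without replicate 2 of F4MKO+FSTL1) to 4 (without replicate 3 of Flox). It gave 7 to 11 male-biased genes called higher and 6 to 8 female-biased genes called lower in this comparison. Of those called in the main fit, 7 male-biased and 5 female-biased genes stayed called in the 1.5-fold test. Against Flox, F4MKO+FSTL1 had 1 called member, Igfbp1, with DESeq2 and 1 without the filter, and 0 to 1 with a library left out; F4MKO had 0 under every alternative.

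All genes called in F4MKO against Flox numbered 338 with DESeq2, 59 without TMM, 478 without the filter, 11 with 6 libraries, 134 with the replicate block, 0 in the 1.5-fold test and 0 to 100 with a library left out. Between F4MKO+FSTL1 and F4MKO they numbered 620 in the 1.5-fold test and 1295 to 2216 with a library left out. Between F4MKO+FSTL1 and Flox they numbered 284 with DESeq2, 2 with DESeq2 size factors, 2 without TMM, 379 without the filter, 0 with 6 libraries, 15 with the replicate block, 0 in the 1.5-fold test and 0 to 101 with a library left out. The causes were not tested.

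Small differences, none of them called, changed sign. In F4MKO against Flox, Igfbp1 was 0.0041 without TMM, and with a library left out Igfbp1 ran from -0.26 to 0.18, Cish from -0.32 to 0.68 and Stat5a from -0.0060 to 0.21. Between F4MKO+FSTL1 and F4MKO, Cish ran from -0.036 to 0.93 and Stat5b from -0.075 to 0.12. Between F4MKO+FSTL1 and Flox, Socs2 was 0.0033 with the replicate block and ran from -0.57 to 0.76, Bcl6 from -0.40 to 0.035 and Cux2 from -0.22 to 0.48. The block changed no call of a member. Same-numbered libraries came from different mice, with correlations of their deviations from -0.0985 to 0.304, and 5 of 9 correlated best with their own number. Depth limits Cux2, with 5 to 27 counts.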

Other observations

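Replicate 3 of Flox had the highest Igf1 (478 CPM), Igfals (92.3 CPM), Socs2 (42.9 CPM), Cish (20.5 CPM) and Hsd3b5 (39.5 CPM) of the Flox livers and the lowest Bcl6 (22.1 CPM) and Stat5b (49.6 CPM). Replicate 2 of Flox had the lowest Igf1 (381 CPM), Igfals (39.1 CPM), Socs2 (7.99 CPM) and Cish (8.19 CPM) of these livers and the highest Igfbp1 (184 CPM). These are values of single mice, described after they were seen and with no test.

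Prlr encodes the prolactin receptor and is female-biased in liver. Chosen after its values were seen, Prlr had 20.4, 16.0 and 40.4 CPM in Flox, 24.0, 46.6 and 24.3 CPM in F4MKO, and 22.2, 23.0 and 17.1 CPM in F4MKO+FSTL1 livers. Its highest level was in replicate 2 of F4MKO, the liver with the most Cux2 and Cyp2a4. Its log2 fold change of -0.60 in F4MKO+FSTL1 against F4MKO was not called (edgeR adjusted p = 0.221).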
